A study of Mus musculus with 24 samples.

Results

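The genes described here are 31 genes of cholesterol and fatty acid synthesis that are known targets or regulators of the sterol regulatory element binding proteins (SREBPs). They were chosen by symbol and fall into a sterol arm of 22 genes and a fatty acid arm of 9. All 31 were found among the 57126 gene identifiers of the count table, and all 31 passed the filter on low counts, which kept 13125 genes for testing. The sterol arm holds the mevalonate enzymes Acat2, Hmgcs1, Mvk, Pmvk and Mvd, the isoprenoid enzymes Idi1 and Fdps, and the squalene enzymes Fdft1, Sqle and Lss. It also holds the enzymes from lanosterol to cholesterol, Cyp51, Tm7sf2, Msmo1, Nsdhl, Hsd17b7, Ebp, Sc5d and Dhcr7, the regulators Insig1, Srebf2 and Scap, and the sterol carrier Stard4. The fatty acid arm holds the regulators Srebf1 and Insig2, the synthesis enzymes Fasn, Acaca and Acly, and the desaturases and elongase Scd2, Elovl6, Fads1 and Fads2.

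SREBPs are transcription factors made as membrane proteins of the endoplasmic reticulum. When membrane sterol is low, the escort protein SCAP carries them to the Golgi, where proteases release the active part, and INSIG proteins hold SCAP back when sterol is plentiful. SREBP-2, from Srebf2, acts mainly on genes of cholesterol synthesis and uptake, and SREBP-1c, from Srebf1, mainly on genes of fatty acid synthesis, with much overlap. In the small intestine, bile acids are needed for the absorption of dietary cholesterol and fat, and enterocytes also make cholesterol themselves.

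The tissue was ileum, the last stretch of the small intestine, cut into fragments that were incubated for 8 h with a test solution, and the read-out was QuantSeq, in which sequencing starts close to the poly(A) tail of an mRNA. All fragments came from male C57BL/6J wild-type mice that had been starved for 4 h. The series asks how endogenous bile acids regulate genes. There were 6 groups of 4 libraries. The first received tauro-conjugated chenodeoxycholic acid (tCDCA), a ligand of the bile acid receptor FXR, labelled 200 µM in replicates 2 to 4. The other treated groups received extracts named CME(-) and CME(+), made from wild-type donors (WT) or from Asbt-/- donors (KO), which lack the ileal bile acid carrier encoded by Slc10a2. CME(-) is labelled 200 µM in replicates 2 to 4. The labels leave CME unexplained. CME(+) is treated here as the depleted form, since the protocol mentions depletion and gives CME(+) no concentration. The last group received 0.6% DMSO, the solvent. KO and WT name the donor of the extract only, and the treated tissue was wild-type throughout. The labels do not state that replicates were different animals. The p-values therefore describe the spread among these libraries, part or all of which may be technical.

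The submitters marked 3 of the 24 libraries as removed, and these were left out of the tests. DMSO replicate 1 had 0.5% DMSO, and poor mapping was the reason for WT CME(+) replicate 2 and KO CME(-) replicate 3. The 21 used libraries had 2.76 to 5.6 M counts each. Replicate 1 of every group is taken here as a first run and replicates 2 to 4 as a second, from 2 prefixes of the column names. The labels do not call them runs. No DMSO library of the first run was used. Mitochondrial rRNA held 6.78 to 8.29% of counts in the first run and 5.29 to 34.6% in the second, with tCDCA replicate 3 lowest and DMSO replicate 3 highest. It moved with treatment in the second run: the used CME(+) libraries held 17.6 to 22.0%, the used CME(-) libraries 24.6 to 31.9%, and the DMSO libraries 19.5 to 34.6%. Levels below are CPM, counts relative to the TMM-scaled library total, and are compared between groups within a gene. Differences are fitted log2 fold changes with standard error (SE) from 1 edgeR quasi-likelihood model with terms for group and run. A gene was called at a Benjamini-Hochberg adjusted p under 0.05 over all genes tested. Groups of 2 or 3 libraries can fail to overlap by chance. The share of all genes that did so is not given, and a lack of overlap below only describes the libraries.

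Exposure to bile acid signalling was checked first. Fgf15, the ileal hormone gene induced through FXR, differed from DMSO by 4.98 with tCDCA, 4.51 with WT CME(-), 3.05 with WT CME(+), 5.21 with KO CME(-) and 3.14 with KO CME(+) on the log2 scale, all called by edgeR. In the tissue, 14 of 19 enterocyte markers were called lower with tCDCA, and the median over all 19 was -1.53. Also called lower were 2 of 7 goblet cell markers, while 3 of 7 Paneth cell and 3 of 8 enteroendocrine markers were called higher. The enterocyte markers' summed level in the second run was 2857 to 5157 CPM with tCDCA, 5735 to 9190 with WT CME(-), 8722 to 9842 with WT CME(+), 5583 to 6540 with KO CME(-) and 4595 to 7145 with KO CME(+), against 9031 to 14440 CPM with DMSO. In bulk tissue, fewer cells of a type and less RNA per cell cannot be told apart. Enterocytes express both arms, and the part of this difference in the results below was not tested. Adipocytes also express the fatty acid arm. Their 8 listed markers, of which 6 were tested and Lep and Adrb3 were not, summed to between 26.3 and 89.5 CPM in the used second-run libraries. In these they summed to 26.3 to 34.0 CPM with KO CME(+) and 27.4 to 30.7 CPM with KO CME(-), below the 52.8 to 75.0 CPM with DMSO. In the first run they summed to between 207 and 555 CPM in the treated libraries, against 28.2 CPM in the removed DMSO replicate 1.

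The 2 runs differed for some members, and this bears on every comparison with DMSO. Fitted over the treated groups, Scd2 was 3.89-fold, Dhcr7 3.52-fold, Tm7sf2 2.45-fold and Srebf2 2.44-fold higher in the second run, the 4 of 31 members beyond 1 log2 unit, and Fdft1 was 1.9-fold higher in the first. Some tissue markers differed as well. T and NK cell markers summed to 49.8 to 62.0 CPM in the first run and 2.22 to 16.8 CPM in the used second-run libraries. Myeloid markers summed to 162 to 213 CPM and 56.0 to 98.3 CPM. Whether tissue, preparation or sequencing made the 2 sets of libraries differ was not tested. Values are therefore given by run, the second-run libraries first.

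**Figure D1:**
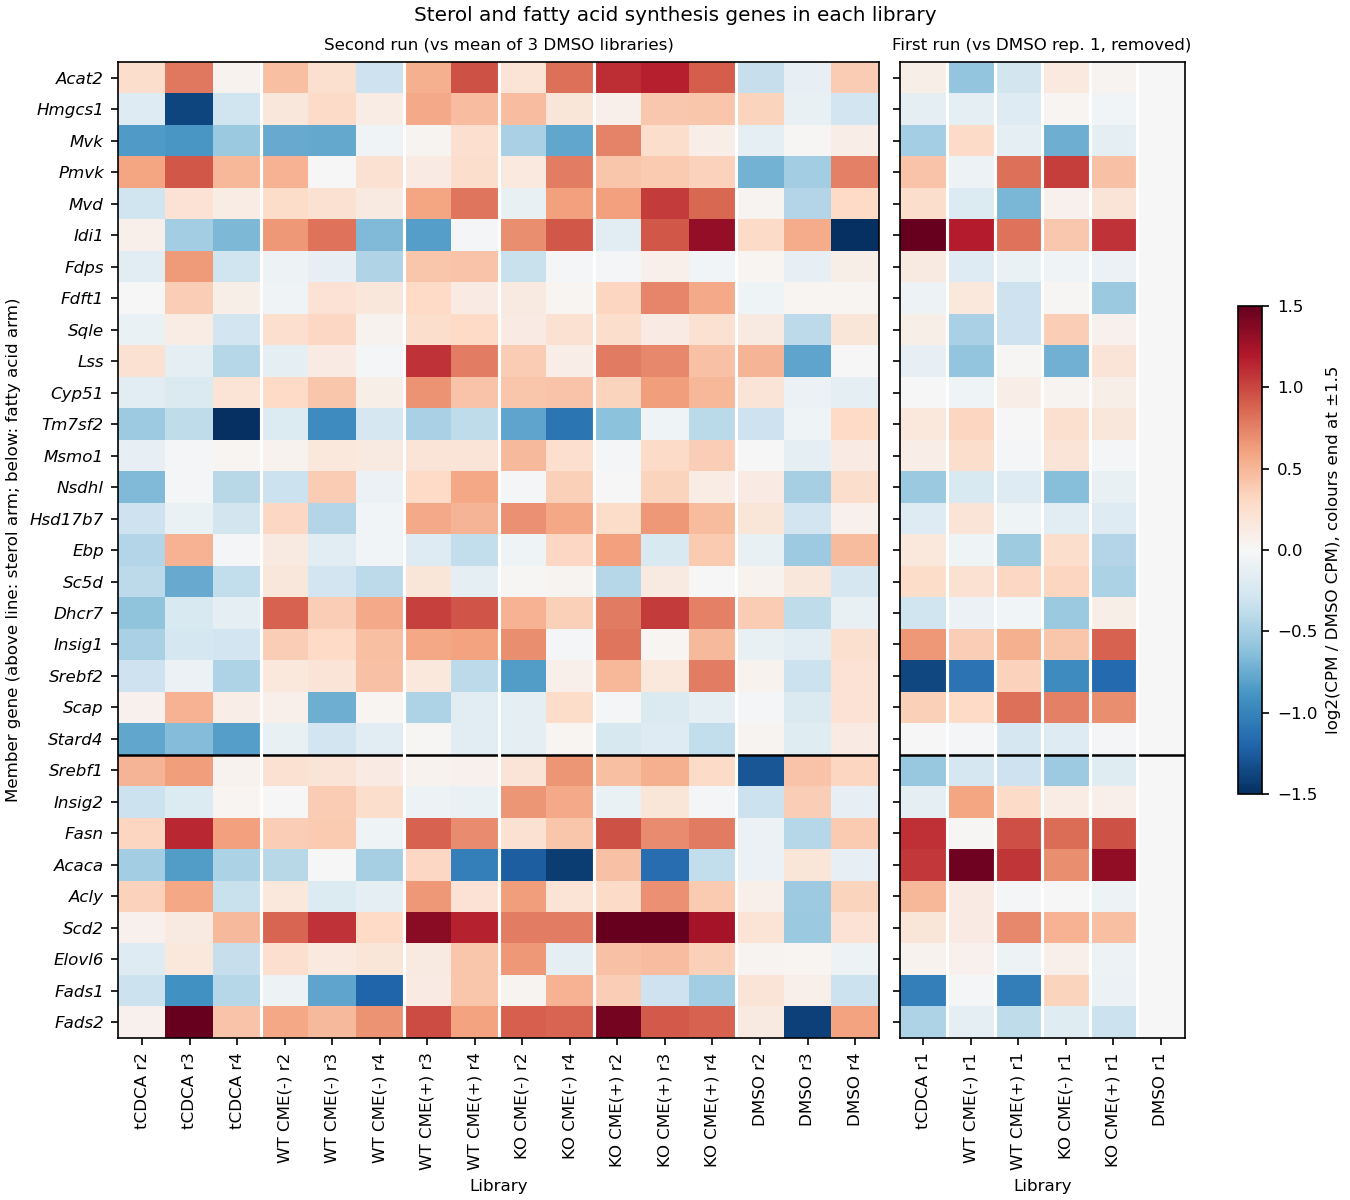
Level of each of the 31 members in each library as log2 of its CPM over the DMSO CPM of the same run (colour, limits at ±1.5), the second run at left against the mean of 3 DMSO libraries and the first run at right against the removed DMSO replicate 1. Each row is a gene, with the sterol arm above the line. Scd2 is red in all used CME(+) libraries of the second run, at 352 to 490 CPM against 107 to 184 CPM with DMSO. In the first run Scd2 was at 94.7 CPM with WT CME(+) and 78.8 CPM with KO CME(+), against 57.5 CPM in the removed DMSO library. The sterol arm medians of the treated first-run libraries lay between -0.07 and 0.09.

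Upstream sequence is shown for the members called in a comparison of an extract with DMSO, as far as the promoter table holds them. It is also shown for Hmgcs1, which was not called there and was picked because its promoter holds the sterol regulatory element searched for here. The sequences come from RefSeq on build GRCm38.p6, read 5′ to 3′ on the strand of the gene, and end at the last base before the annotated start. Capitals mark 3 motifs on either strand: the sterol regulatory element TCACNCCAC, the CCAAT box (ATTGG on the other strand) bound by NF-Y, and the GC box GGGCGG, which reads CCGCCC on the other strand, bound by Sp1, the usual partners of SREBPs. Matches of a motif may overlap, as the facing CCAAT boxes of Fasn do in CCAATTGG.
Acat2, chr17:12960726-12960975, minus strand: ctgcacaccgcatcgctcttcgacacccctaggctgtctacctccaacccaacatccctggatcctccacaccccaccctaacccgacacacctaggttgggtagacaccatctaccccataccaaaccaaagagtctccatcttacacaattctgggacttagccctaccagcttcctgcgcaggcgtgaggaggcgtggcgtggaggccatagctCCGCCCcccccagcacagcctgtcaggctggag
Dhcr7, chr7:143822917-143823166, plus strand: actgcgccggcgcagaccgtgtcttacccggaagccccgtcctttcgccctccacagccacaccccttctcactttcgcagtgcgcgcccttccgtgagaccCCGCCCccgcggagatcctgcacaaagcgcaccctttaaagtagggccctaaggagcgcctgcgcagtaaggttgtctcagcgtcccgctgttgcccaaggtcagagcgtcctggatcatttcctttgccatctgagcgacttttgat
Fasn, chr11:120824548-120824797, minus strand: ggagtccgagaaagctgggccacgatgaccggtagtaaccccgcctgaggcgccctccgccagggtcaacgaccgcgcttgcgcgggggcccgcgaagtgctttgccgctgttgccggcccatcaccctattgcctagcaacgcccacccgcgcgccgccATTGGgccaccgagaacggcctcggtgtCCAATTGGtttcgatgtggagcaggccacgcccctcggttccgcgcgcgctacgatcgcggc
Hmgcs1, chr13:119690101-119690350, plus strand: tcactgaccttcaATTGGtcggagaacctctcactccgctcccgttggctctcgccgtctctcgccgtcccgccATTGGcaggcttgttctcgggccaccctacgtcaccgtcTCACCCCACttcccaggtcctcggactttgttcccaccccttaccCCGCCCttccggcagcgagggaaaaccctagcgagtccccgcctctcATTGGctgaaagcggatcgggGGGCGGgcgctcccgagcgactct

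Promoters were found for 25 of the 31 members, and for Dhcr7 the table lists 3 starts, of which that nearest to the annotated gene start was taken. Hmgcs1 was the 1 member of 25 (4%) with the sterol regulatory element spelled in these letters within 250 bases, beside 1.05% of the 32851 promoters in the table. The CCAAT box was present in 18 of 25 (72%), beside 33.8% of all promoters, and the GC box in 18 of 25 (72%), beside 32.7%. Fasn had 3 CCAAT boxes and no GC box, Hmgcs1 had 3 and 2, and Acat2 and Dhcr7 had no CCAAT box and 1 GC box each. A match is a description of the letters and not evidence of binding.

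KO CME(+), the extract of Asbt-/- donors taken as depleted, gave the most called members. Against DMSO, 4 of 31 members were called and all 4 rose: Scd2, Acat2, Dhcr7 and Fasn, while 1.39% of all genes tested were called higher and 2.31% in either direction. Over the sterol arm the median difference was 0.31 and 18 of 22 members were positive. Over the fatty acid arm it was 0.37 with 7 of 9 positive, beside a median of -0.01 over all genes tested.

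Scd2 (ENSMUSG00000025203), a stearoyl-CoA desaturase that makes monounsaturated fatty acids, was at 490, 490 and 374 CPM with KO CME(+) in the second run, against 182, 107 and 184 CPM with DMSO. The groups did not overlap. Scd2 rose 2.63-fold, a log2 difference of 1.40 ± 0.21 (SE, 95% interval 0.98 to 1.81; edgeR adjusted p = 0.000136). In the first run it was at 78.8 CPM with KO CME(+), against 57.5 CPM in the removed DMSO library, a small difference at a much lower level.

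Acat2 (ENSMUSG00000023832), the cytosolic thiolase that opens the mevalonate pathway, was at 50.9, 53.3 and 44.6 CPM with KO CME(+), against 18.6, 21.7 and 30.7 CPM with DMSO. It rose 1.98-fold (0.98 ± 0.24, edgeR adjusted p = 0.0168). The second-run groups did not overlap, and the first-run libraries were alike, at 41.9 CPM with KO CME(+) and 40.6 CPM in the removed DMSO library. Acat2 has a close paralog, Acat3, and how reads shared between them were counted is not given in the sources used here.

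Dhcr7 (ENSMUSG00000058454), the reductase of the last step to cholesterol, was at 41.3, 49.9 and 40.9 CPM with KO CME(+), against 31.5, 18.5 and 22.4 CPM with DMSO. It rose 1.79-fold (0.84 ± 0.23, edgeR adjusted p = 0.0427), with no overlap in the second run. The first-run values were 11.6 CPM with KO CME(+) and 10.9 CPM in the removed DMSO library.

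Fasn (ENSMUSG00000025153), fatty acid synthase, was at 52.8, 44.5 and 46.6 CPM with KO CME(+), against 25.7, 20.3 and 35.7 CPM with DMSO. It rose 1.74-fold (0.80 ± 0.22, edgeR adjusted p = 0.0408). Fasn also differed in the first run, with 38.6 CPM under KO CME(+) and 19.9 CPM in the removed DMSO library. Adipocyte markers differed between these 2 libraries too, summing to 402 and 28.2 CPM. Their part in the Fasn values was not tested.

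Several members lay near the threshold without passing it. Mvd, the decarboxylase that ends the mevalonate steps, was at 51.4, 69.7 and 61.4 CPM with KO CME(+), against 34.8, 24.8 and 41.5 CPM with DMSO (0.80 ± 0.24, edgeR adjusted p = 0.0651). Fads2, the first desaturase of polyunsaturated fatty acids, had 47.4, 33 and 32.4 CPM, against 19.2, 6.64 and 26.6 CPM (1.02 ± 0.33, adjusted p = 0.102). Here the DMSO libraries were widely spread, and replicate 3 was far lowest. Cyp51, the lanosterol demethylase, differed by 0.47 ± 0.16 (adjusted p = 0.112) and Lss, lanosterol synthase, by 0.66 ± 0.28 (adjusted p = 0.227). At the other end, Fdps, which makes farnesyl diphosphate, was at 42.1, 44.7 and 41.3 CPM, against 43.4, 39.1 and 45.1 CPM, a difference of 0.00 with a 95% interval of -0.41 to 0.41. Tm7sf2, Stard4, Acaca, Sc5d, Scap and Fads1 were the 6 members with negative differences, between -0.39 and -0.06, and none was called.

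The call of Scd2 was lost only where the run term was dropped, among 19 alternatives. The other 3 calls rested on few libraries: without DMSO replicate 3 the adjusted p of edgeR was 0.134 for Acat2, 0.317 for Dhcr7 and 0.328 for Fasn, and without KO CME(+) replicate 2 or replicate 3 Scd2 alone was called. Without DMSO replicate 2, Acat2 (0.0779) and Fasn (0.0976) lost their calls, without KO CME(+) replicate 4, Dhcr7 (0.0902) and Fasn (0.0962), and without DMSO replicate 4, Dhcr7 (0.132). Within the second run alone 5 members were called, these 4 and Mvd (0.84, adjusted p = 0.0295). Beside these changes, Cidec, an adipocyte marker, fell with KO CME(+) (-1.48 ± 0.37), as did Cdhr2, an enterocyte marker (-0.75 ± 0.19), the 1 of 19 called. All 19 enterocyte markers were negative (median -0.72), and their summed level did not overlap that of DMSO in the second run. Of 11 tested markers of crypt and proliferating cells, 10 were positive (median 0.56, 0 called by edgeR). The 12 listed markers summed in the second run to 610 to 720 CPM with KO CME(+), against 351 to 548 CPM with DMSO. The used libraries of the other extracts were above DMSO too. Their sums were 580 to 693 CPM with WT CME(-), 551 to 562 with WT CME(+) and 555 to 797 with KO CME(-). The share of mitochondrial rRNA in the second run was 17.6 to 19.0% with KO CME(+), against 19.5 to 34.6% with DMSO. With this rRNA and a further abundant identifier, not named here, left out of the counts the same number of members, 4, was called. The part of each cell type in the module's values was not tested.

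**Figure D2:**
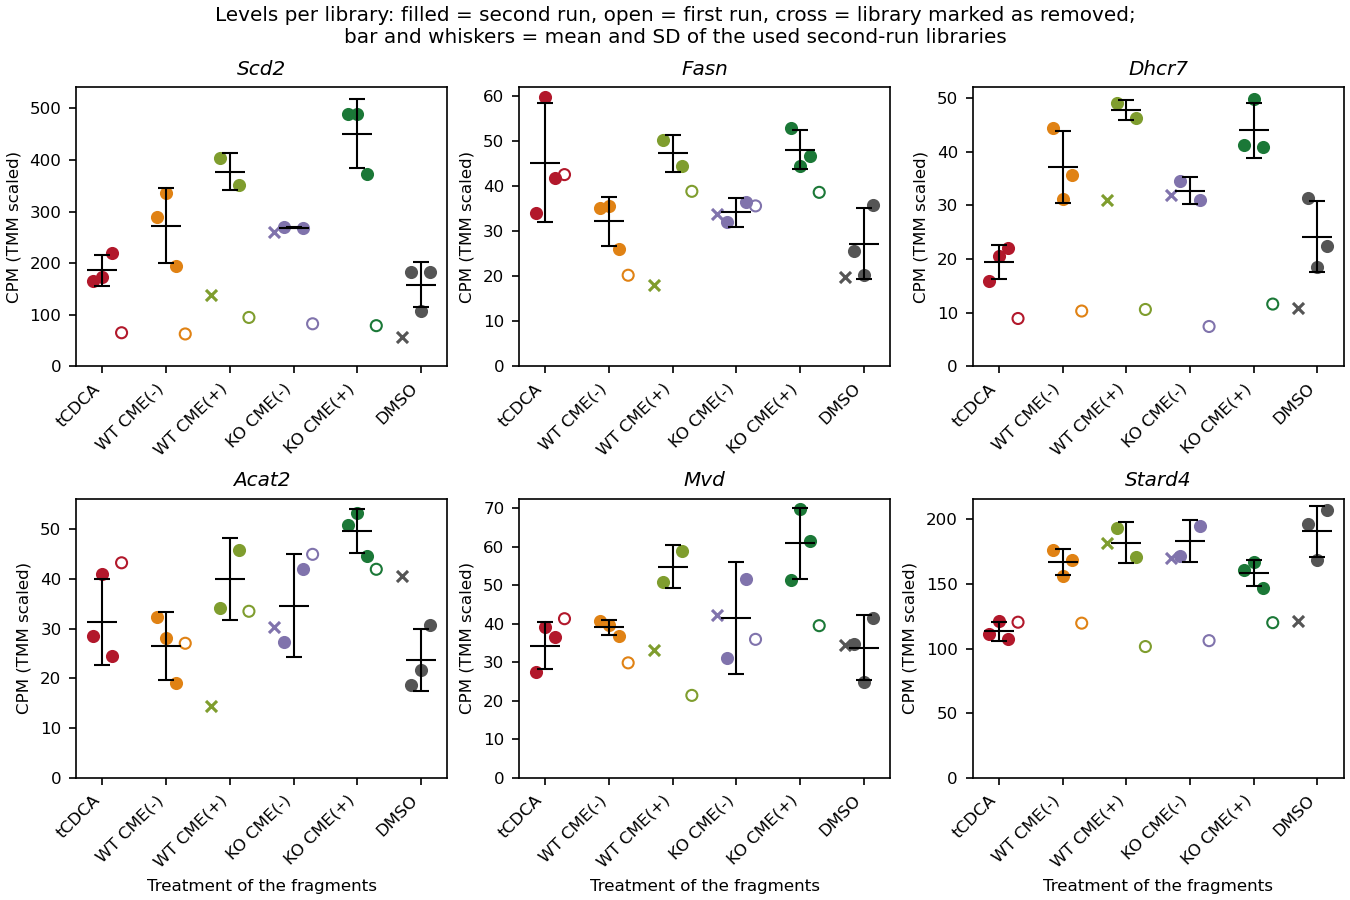
CPM of 6 members in every library by treatment, with filled points for the second run, open points for the first run, crosses for libraries marked as removed, and bars for the mean and SD of used second-run libraries. Each panel has its own axis from 0. For Scd2 the second-run KO CME(+) libraries sit at 374 to 490 CPM, above DMSO at 107 to 184 CPM, and the highest first-run library is at 94.7 CPM.

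The WT CME(+) extract gave 1 called member, Scd2, where 0.175% of all genes were called. Scd2 was at 403 and 352 CPM with WT CME(+) in the second run, against 182, 107 and 184 CPM with DMSO, and rose 2.37-fold (1.25 ± 0.22, edgeR adjusted p = 0.00476). The first-run values were 94.7 CPM with WT CME(+) and 57.5 CPM in the removed DMSO library. The removed WT CME(+) replicate 2, of the second run, had 139 CPM, within the range of DMSO. With all 24 libraries in the fit the difference was 0.86 and the call was lost (adjusted p = 0.603), and it was also lost without DMSO replicate 3 (1.03, adjusted p = 0.0917) or WT CME(+) replicate 3 (1.18, adjusted p = 0.0582).

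Among the sterol members with WT CME(+), Dhcr7 was at 49 and 46.4 CPM, against 31.5, 18.5 and 22.4 CPM with DMSO (0.88 ± 0.25, edgeR adjusted p = 0.168). DESeq2 called it (0.88, adjusted p = 0.041). The removed WT CME(+) replicate 2 had 31.1 CPM of Dhcr7, within the range of DMSO. The first-run values were 10.6 CPM with WT CME(+) and 10.9 CPM in the removed DMSO library. Lss had 29.4 and 23.6 CPM, against 19.9, 8.04 and 13.8 CPM (0.81 ± 0.30, adjusted p = 0.322), and Cyp51 differed by 0.50 ± 0.17 (adjusted p = 0.265). Fasn, at 50.1 and 44.3 CPM against 25.7, 20.3 and 35.7 CPM, differed by 0.78 ± 0.24 (adjusted p = 0.195). The removed WT CME(+) replicate 2 had 17.9 CPM of Fasn, below every DMSO library. First-run Fasn was at 38.8 CPM with WT CME(+) and 19.9 CPM in the removed DMSO library. Adipocyte markers there summed to 265 and 28.2 CPM, and their part was not tested. The median was 0.32 over the sterol arm and 0.23 over the fatty acid arm, beside -0.02 over all genes tested. This group had 2 used second-run libraries.

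KO CME(-), the Asbt-/- extract with bile acids, also gave 1 called member, where 0.952% of all genes were called. Scd2 was at 269 and 268 CPM with KO CME(-), against 182, 107 and 184 CPM with DMSO (0.86 ± 0.22, 1.81-fold; edgeR adjusted p = 0.0454). Both values lie above all 3 DMSO libraries, as does the removed KO CME(-) replicate 3, but the adjusted p is close to the threshold. The call was lost under 13 of 18 alternatives, among them the second run alone (0.78, adjusted p = 0.115) and the fit without any 1 of 5 of the 6 libraries compared, DMSO replicate 2 being the exception.

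Other members with KO CME(-) varied in both directions without a call. Acaca, acetyl-CoA carboxylase, the enzyme that commits carbon to fatty acids, was at 5.38 and 4.7 CPM with KO CME(-), against 11.9, 14.3 and 11.6 CPM with DMSO (-1.15 ± 0.38, edgeR adjusted p = 0.152). In the first run the order was the opposite, with 10.7 CPM for KO CME(-) and 6.63 CPM in the removed DMSO library. Fads2 had 32.7 and 32.1 CPM, against 19.2, 6.64 and 26.6 CPM (0.90 ± 0.36, adjusted p = 0.272). The arm medians were 0.26 for sterol and 0.37 for fatty acid genes, beside -0.01 over all genes tested.

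With WT CME(-) no member was called by edgeR, where 0.297% of all genes were. At an unadjusted p under 0.05 there were 2 members, Scd2 and Dhcr7, both higher, beside 4.45% of all genes higher and 9.38% in either direction, and DESeq2 called 1 member, Scd2. Scd2 was at 289, 335 and 194 CPM with WT CME(-), against 182, 107 and 184 CPM with DMSO (0.75 ± 0.20, edgeR adjusted p = 0.121), so that the lowest treated library lay just above the highest DMSO library. Without WT CME(-) replicate 4 it was called (0.89, adjusted p = 0.0452). Dhcr7 was at 44.5, 31.3 and 35.7 CPM, against 31.5, 18.5 and 22.4 CPM (0.61 ± 0.24, adjusted p = 0.359), with a slight overlap. The arm medians were 0.15 and 0.21, beside -0.01 over all genes tested.

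With tCDCA, the pure bile acid, 2 of 31 members were called against DMSO, Stard4 lower and Fasn higher, a share near the 5.68% of all genes called in that comparison. The sterol arm was centred near 0, with a median of 0.02 and 12 of 22 members positive, and the fatty acid arm had a median of 0.35, beside 0.00 over all genes tested. At an unadjusted p under 0.05, 7 of 31 members differed, 4 higher and 3 lower, beside 8.86% of all genes higher, 8.83% lower and 17.7% in either direction.

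Stard4 (ENSMUSG00000024378), which encodes a carrier that moves cholesterol between membranes, was at 111, 121 and 107 CPM with tCDCA in the second run, against 196, 168 and 207 CPM with DMSO. The groups were well apart, and Stard4 fell 1.51-fold (-0.59 ± 0.16, edgeR adjusted p = 0.0236). In the first run the values were equal within 1 CPM, 120 CPM with tCDCA and 121 CPM in the removed DMSO library. Within the second run alone the difference was -0.75 (adjusted p = 0.00311). The call was lost without tCDCA replicate 2 (adjusted p = 0.0626) or 4 (0.101) and without DMSO replicate 2 (0.0572) or 4 (0.0961).

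Fasn was at 33.9, 59.8 and 41.8 CPM with tCDCA, against 25.7, 20.3 and 35.7 CPM with DMSO, and rose 1.71-fold (0.77 ± 0.22, edgeR adjusted p = 0.0293). The second-run groups overlapped, since tCDCA replicate 2 lay below DMSO replicate 4. The first-run tCDCA library had 42.5 CPM, against 19.9 CPM in the removed DMSO library. Adipocyte markers summed to 555 and 28.2 CPM in these 2 libraries, and their part in the Fasn values was not tested. Within the second run alone the difference was 0.73 and just missed the threshold (adjusted p = 0.0589), and without tCDCA replicate 3 and DMSO replicate 3, which stood apart in mitochondrial rRNA, it was 0.44 (adjusted p = 0.464). Leaving out tCDCA replicate 1 (adjusted p = 0.0554) or 3 (0.113), or DMSO replicate 2 (0.0893) or 3 (0.227), also ended the call.

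No other sterol enzyme was called between tCDCA and DMSO. In the second run the summed level of the sterol arm was 1223 to 1267 CPM with tCDCA, against 1311 to 1578 CPM with DMSO, so that the groups did not overlap. Abundant members weigh most in this sum. Among them, Hmgcs1 averaged 203.9 CPM with tCDCA and 295.9 CPM with DMSO, and Stard4 113.2 and 190.5 CPM. The fitted differences of other members went both ways. By library the arm median overlapped DMSO, at -0.09 in tCDCA replicate 3 and -0.17 in DMSO replicate 3. Acat2 was at 28.5, 41 and 24.5 CPM, against 18.6, 21.7 and 30.7 CPM (0.51 ± 0.24, edgeR adjusted p = 0.245). Msmo1, a methylsterol oxidase, was at 287, 309 and 320 CPM, against 314, 283 and 339 CPM (0.02, 95% interval -0.29 to 0.32), and Sqle, squalene epoxidase, had an interval of -0.38 to 0.42. Hmgcs1, HMG-CoA synthase, was at 258, 114 and 240 CPM, against 372, 273 and 243 CPM (-0.35 ± 0.22, edgeR adjusted p = 0.434), with replicate 3 of tCDCA far below the other libraries. Tm7sf2, a sterol reductase, was at 13.2, 14.9 and 6.28 CPM, against 15.6, 18.5 and 23.8 CPM (-0.71 ± 0.30, adjusted p = 0.191), and Mvk, mevalonate kinase, at 7.46, 7.31 and 9.11 CPM, against 12.2, 13.6 and 14.4 CPM (-0.70 ± 0.32, adjusted p = 0.229). Neither Tm7sf2 nor Mvk passed the threshold.

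None of the desaturases was called with tCDCA. Scd2 was at 166, 173 and 220 CPM, against 182, 107 and 184 CPM (0.36 ± 0.20, edgeR adjusted p = 0.373), an overlapping range. Fads2 was at 18.3, 52.7 and 23.5 CPM, against 19.2, 6.64 and 26.6 CPM (0.80 ± 0.33, adjusted p = 0.177), with the high value in tCDCA replicate 3 and the low one in DMSO replicate 3. Fads1, the second desaturase of that pathway, was at 7.46, 4.96 and 6.91 CPM, against 10.7, 9.79 and 7.47 CPM (-0.61 ± 0.38, adjusted p = 0.435).

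**Figure D3:**
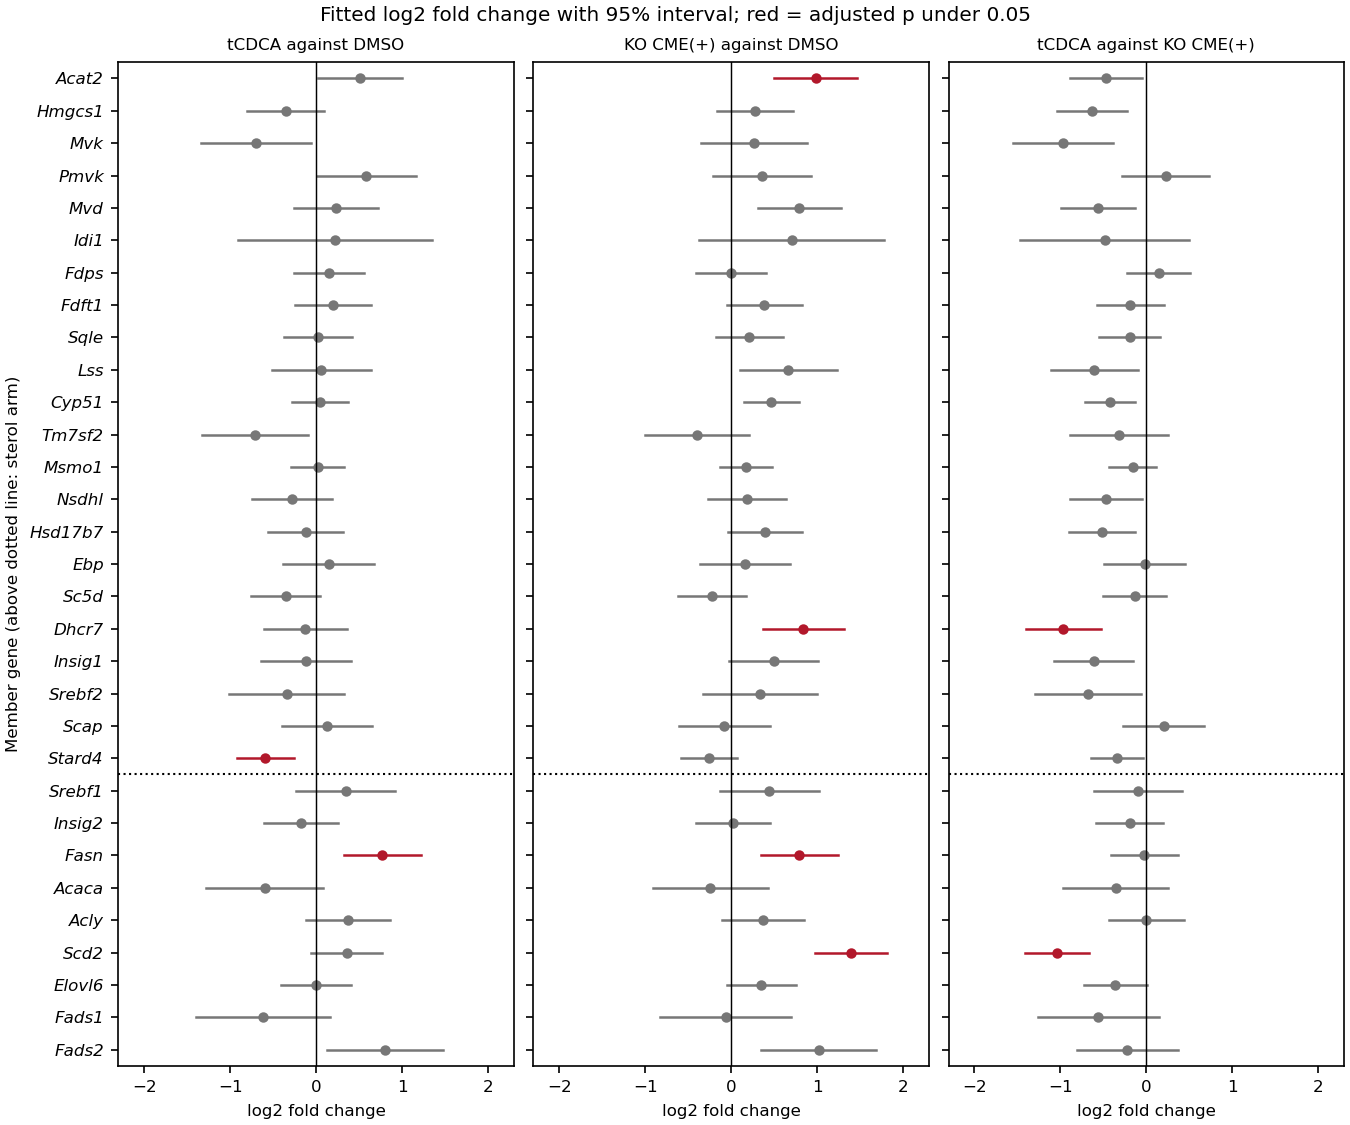
Fitted log2 fold change of each member with its 95% interval for tCDCA against DMSO, KO CME(+) against DMSO and tCDCA against KO CME(+), with the sterol arm above the dotted line and red for an adjusted p under 0.05. Red marks Stard4 and Fasn at left, Acat2, Dhcr7, Fasn and Scd2 in the middle, and Dhcr7 and Scd2 at right. In the right panel 12 of 22 sterol intervals lie wholly below 0.

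Set directly against the CME(+) extracts, tCDCA gave lower Scd2 and Dhcr7. Against KO CME(+), 2 of 31 members were called, Scd2 and Dhcr7, both lower, where 1.06% of all genes were called lower and 1.93% in either direction. Scd2 was at 166, 173 and 220 CPM with tCDCA, against 490, 490 and 374 CPM with KO CME(+) (-1.04 ± 0.18, edgeR adjusted p = 0.00119). Dhcr7 was at 15.9, 20.6 and 22 CPM, against 41.3, 49.9 and 40.9 CPM (-0.96 ± 0.22, adjusted p = 0.00891). For both genes the second-run groups were far apart, while the first-run libraries had 65.1 CPM with tCDCA and 78.8 CPM with KO CME(+) for Scd2, and 8.91 and 11.6 CPM for Dhcr7.

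The sterol arm as a whole leaned the same way, and in it only Dhcr7 passed the adjusted threshold. Its median was -0.44, beside 0.00 over all genes tested, 19 of 22 members were negative, and 12 of 22 had an unadjusted p under 0.05, all lower, beside 6.35% of all genes. Mvk (-0.97 ± 0.29, edgeR adjusted p = 0.07), Hmgcs1 (-0.63 ± 0.20, adjusted p = 0.109) and Cyp51 (-0.42 ± 0.14, adjusted p = 0.139) were nearest to a call. Insig1, which encodes the sterol-sensitive anchor of SCAP and is itself an SREBP target, was at 12.5, 14.6 and 14.4 CPM with tCDCA, against 30.5, 17.9 and 24.6 CPM with KO CME(+) (-0.61 ± 0.23, adjusted p = 0.191). Fasn showed no such difference (-0.02, 95% interval -0.41 to 0.37), and Acly, ATP citrate lyase, had an interval of -0.43 to 0.44. In this comparison 5 of 19 enterocyte markers were called lower with tCDCA, and the median over all 19 was -0.62. The crypt marker Axin2 (-1.11 ± 0.25) and the goblet cell marker Fcgbp (-0.97 ± 0.16) were called lower too. The Paneth cell markers Ang4 (0.83 ± 0.18), Defa30 (0.71 ± 0.18) and Spink4 (0.69 ± 0.17) and the smooth muscle markers Acta2 (0.69 ± 0.17) and Actg2 (0.78 ± 0.19) were called higher. Their part in the sterol values was not tested.

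Against WT CME(+) tCDCA again gave 2 called members, Dhcr7 (2.01-fold lower, edgeR adjusted p = 0.0135) and Scd2 (1.85-fold lower, adjusted p = 0.0102), where 1.06% of all genes were called lower and 1.55% in either direction. The sterol median was -0.30, and 10 of 22 members had an unadjusted p under 0.05, all lower, beside 6.61% of all genes. This comparison uses the same tCDCA libraries as that with KO CME(+). Hmgcs1 differed by -0.73 ± 0.21 (adjusted p = 0.0806), and its lowest tCDCA library, replicate 3 at 114 CPM, stood far below the others. The Dhcr7 call was lost without tCDCA replicate 2 or either second-run WT CME(+) library (adjusted p = 0.0653 to 0.113), and the Scd2 call without tCDCA replicate 3 or either of those WT CME(+) libraries (0.0516 to 0.0903). Against KO CME(+), Dhcr7 lost its call without tCDCA replicate 2 (0.0551) or KO CME(+) replicate 3 (0.0533), and Scd2 kept it whichever library was left out. Without tCDCA replicate 1, of the first run, the count against KO CME(+) rose to 6 members with Hmgcs1 (-0.86, edgeR adjusted p = 0.0114), Mvd (-0.82, 0.0388), Insig1 (-0.89, 0.0433) and Stard4 (-0.54, 0.0488) added, all lower. Against WT CME(+) it rose to 4 with Hmgcs1 (-0.96, 0.00755) and Stard4 (-0.61, 0.034).

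Against the CME(-) extracts no member was called. For tCDCA against WT CME(-), where 0.541% of all genes were called by edgeR, 6 of 31 members and 10.7% of all genes had an unadjusted p under 0.05, and the nearest to a call was Dhcr7 at -0.74 ± 0.22 (adjusted p = 0.124). For tCDCA against KO CME(-), where 0.114% were called, 8 of 31 members had an unadjusted p under 0.05, all lower, beside 3.76% of all genes lower. The sterol medians were -0.18 against WT CME(-) and -0.20 against KO CME(-), beside 0.01 and 0.00 over all genes tested. DESeq2 called 1 member against WT CME(-), Dhcr7 (-0.75, adjusted p = 0.0415), and 0 against KO CME(-). Without tCDCA replicate 1, Dhcr7 (-0.96, edgeR adjusted p = 0.0208) and Stard4 (-0.59, 0.0429) were called against WT CME(-), and Hmgcs1 (-0.91, 0.0404) against KO CME(-).

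**Figure D4:**
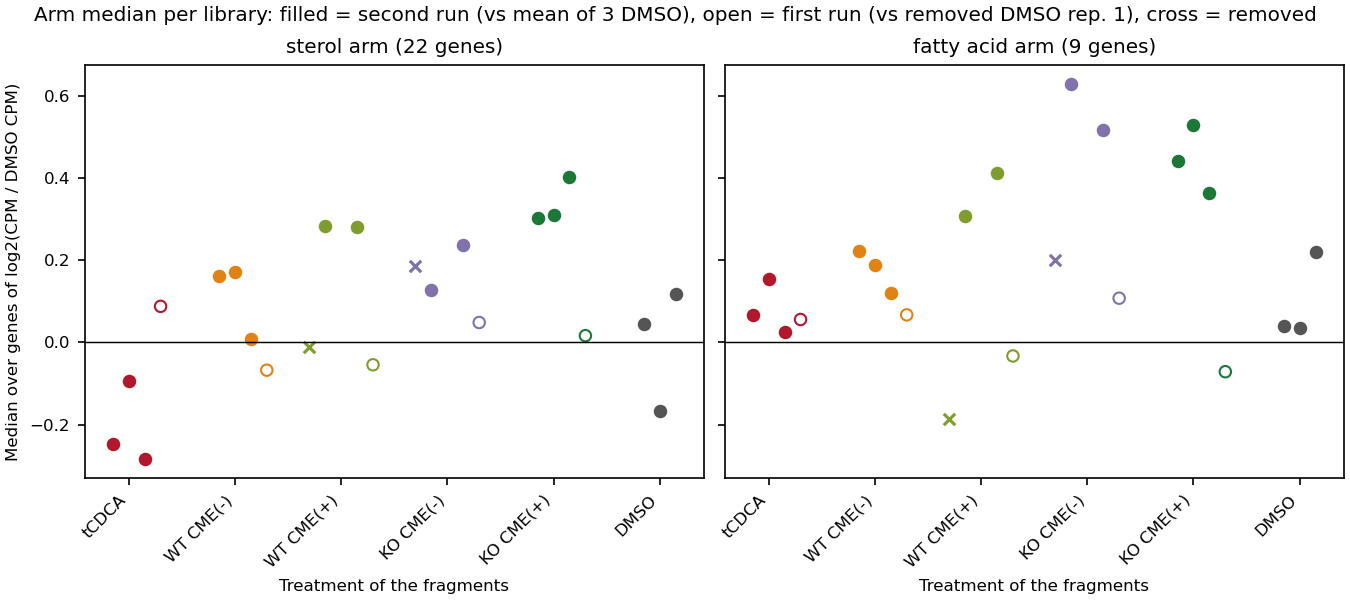
Median over the genes of each arm of log2 CPM relative to DMSO of the same run, 1 point per library, with filled points for the second run, open points for the first and crosses for removed libraries. In the sterol panel the second-run tCDCA libraries lie at -0.28 to -0.09 and those of KO CME(+) at 0.30 to 0.40, with DMSO at -0.17 to 0.12. The first-run libraries lie at -0.07 to 0.09.

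The sterol arm was also followed library by library in the second run. Its median relative to DMSO was -0.25, -0.09 and -0.28 in the tCDCA libraries. The medians were 0.16, 0.17 and 0.01 with WT CME(-), 0.28 and 0.28 with WT CME(+), 0.13 and 0.24 with KO CME(-), and 0.30, 0.31 and 0.40 with KO CME(+), against 0.04, -0.17 and 0.12 in the DMSO libraries themselves. All CME(+) libraries lay above all DMSO libraries, and tCDCA overlapped DMSO through replicate 3 of each. The removed WT CME(+) replicate 2 had -0.01. The summed level of the arm was 1240 ± 23.6 CPM with tCDCA, 1562 ± 45.1 with WT CME(-), 1810 ± 70.7 with WT CME(+), 1714 ± 15.6 with KO CME(-) and 1762 ± 133 with KO CME(+), against 1463 ± 137 CPM with DMSO (SD, n = 3, 3, 2, 2, 3 and 3). In the first run the treated libraries were at medians of -0.07 to 0.09, so that this order was not seen there. The fitted values, which use both runs, put the sterol median of tCDCA against DMSO at 0.02, and the second run alone puts it at -0.16.

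The comparison of CME(-) with CME(+) from the same donors sets the form labelled with a concentration against the form taken as depleted. Fgf15 was called above DMSO with CME(+) too, by 3.05 for WT and 3.14 for KO donors on the log2 scale. The comparison is therefore not one of FXR signal against none. For WT donors 0 members were called by edgeR, as were 0 of all genes (0%), while 5 of 31 members and 6.33% of all genes had an unadjusted p under 0.05. All 5 members, Acat2, Fdps, Lss, Fasn and Scd2, were lower with CME(-), beside 3.37% of all genes lower. DESeq2 likewise called 0 members. Lss was at 12.7, 15.1 and 13.8 CPM with WT CME(-), against 29.4 and 23.6 CPM with WT CME(+) (-0.83 ± 0.27, edgeR adjusted p = 0.538). Fasn was at 35.1, 35.6 and 25.9 CPM, against 50.1 and 44.3 CPM (-0.64 ± 0.21, adjusted p = 0.538).

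For KO donors 0 members were called, where 3 genes in all were (0.0229%), and 6 of 31 members had an unadjusted p under 0.05, 5 of them lower with CME(-), beside 3.75% of all genes lower and 7.11% in either direction. DESeq2 also called 0 members. Scd2 was at 269 and 268 CPM with KO CME(-), against 490, 490 and 374 CPM with KO CME(+) (-0.54 ± 0.20, edgeR adjusted p = 0.476). Mvk was at 9.6 and 7.84 CPM, against 22.5, 16.1 and 14.4 CPM (-0.94 ± 0.32, adjusted p = 0.407). Insig2, the INSIG isoform not driven by SREBPs, was the member that leaned the other way, at 50.3 and 47 CPM with KO CME(-), against 29.7, 36.1 and 31.1 CPM with KO CME(+) (0.42 ± 0.20, adjusted p = 0.696). The sterol medians were -0.22 for WT and -0.12 for KO donors, each beside -0.01 over all genes tested. The share of mitochondrial rRNA did not overlap between these groups in the second run, at 26.2 to 31.9% with WT CME(-) against 19.5 to 22.0% with WT CME(+), and at 24.6 to 27.4% with KO CME(-) against 17.6 to 19.0% with KO CME(+). Its part in these differences was not tested.

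Averaged over both donors, CME(-) against CME(+) again called 0 members by edgeR, where 0.434% of all genes were called. Scd2 (-0.52 ± 0.14, adjusted p = 0.0889) and Lss (-0.70 ± 0.19, adjusted p = 0.0975) came nearest, and 7 of 31 members had an unadjusted p under 0.05, beside 9.79% of all genes. DESeq2 called these 2 genes, with adjusted p of 0.0425 for Scd2 and 0.0382 for Lss. With the extract donor as a block, which pairs CME(-) and CME(+) of the same donors, edgeR called Scd2 (-0.49, adjusted p = 0.0314), and without KO CME(+) replicate 1 it did too (-0.58, 0.0465). The difference between the CME(-) against CME(+) contrasts, KO minus WT, called 0 members and 0% of all genes, with 1 member, Acaca, at an unadjusted p under 0.05 beside 3.74% of all genes. DESeq2 called 0 members here too. For Scd2 that difference was -0.05 with a 95% interval of -0.62 to 0.52, and for Dhcr7 -0.22 with an interval of -0.88 to 0.43.

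Extracts of KO donors were also set against those of WT donors in the same form, CME(-) or CME(+). Neither KO CME(-) against WT CME(-) nor KO CME(+) against WT CME(+) called a member or any gene by edgeR (0% each). At an unadjusted p under 0.05 there were 2 members and 4.05% of all genes for CME(-), and 0 members and 4.24% of all genes for CME(+). DESeq2 called 0 members in both. For Scd2 the intervals of the differences were -0.30 to 0.51 for CME(-) and -0.25 to 0.55 for CME(+). Acat2 differed by 0.50 ± 0.23 between the CME(-) extracts (adjusted p = 0.997), at 27.3 and 41.9 CPM with KO CME(-), against 32.4, 28 and 19.1 CPM with WT CME(-).

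The remaining members were not called in any of the 15 comparisons. Pmvk, phosphomevalonate kinase, was at 27.1, 34.4 and 25.4 CPM with tCDCA and 24.1, 23.7 and 22.9 CPM with KO CME(+), against 11, 12.6 and 30.5 CPM with DMSO. DMSO replicate 4 was far above the other DMSO libraries and inside the range of tCDCA, and without it Pmvk was called for tCDCA (1.21, edgeR adjusted p = 0.0131). Idi1, the isomerase that makes the second isoprenoid unit, had the lowest counts of the members and a wide error: its tCDCA difference from DMSO had an interval of -0.91 to 1.35.

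Among the enzymes between lanosterol and cholesterol, Nsdhl, a sterol dehydrogenase, was at 19, 29.8 and 22.6 CPM with tCDCA and 30, 38 and 32.4 CPM with KO CME(+), against 32.7, 21.3 and 36.3 CPM with DMSO. Hsd17b7, the reductase that acts with it, was at 29.5, 34.2 and 30.1 CPM with tCDCA and 44.5, 57.5 and 50.9 CPM with KO CME(+), against 41.5, 30.1 and 38.2 CPM with DMSO. Between tCDCA and KO CME(+) neither gene was called (-0.47 ± 0.21 for Nsdhl, edgeR adjusted p = 0.31, and -0.51 ± 0.19 for Hsd17b7, adjusted p = 0.19). In that comparison Ebp, the sterol isomerase, differed by -0.01 with an interval of -0.48 to 0.46, and Sc5d, a sterol desaturase, by -0.13 ± 0.18.

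In the fatty acid arm, Elovl6, which elongates palmitate, was at 32.2, 41 and 28.9 CPM with tCDCA and 49.8, 51 and 47.4 CPM with KO CME(+), against 37.9, 37.7 and 34.9 CPM with DMSO. All 3 KO CME(+) libraries were above those of tCDCA and DMSO, at 0.35 ± 0.20 over DMSO (edgeR adjusted p = 0.405). KO CME(-) replicate 2 was higher still, at 58.0 CPM. The first-run libraries were level at 35.4 CPM with KO CME(+) and 37.3 CPM in the removed DMSO library. Acly, which supplies cytosolic acetyl-CoA, had 33.2, 39.1 and 20.7 CPM with tCDCA and 31.9, 41.9 and 34.2 CPM with KO CME(+), against 27.5, 17.8 and 32.9 CPM with DMSO, an overlapping range. Fdft1, squalene synthase, was at 24.4, 31.3 and 25.7 CPM with tCDCA and 30.3, 40.3 and 35.9 CPM with KO CME(+), against 23.2, 24.8 and 24.6 CPM with DMSO (0.39 ± 0.22 for KO CME(+), adjusted p = 0.397). In the first run KO CME(+) was lower, at 40.2 CPM, against 59 CPM in the removed DMSO library.

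The regulators Srebf2, Scap, Insig1, Srebf1 and Insig2 were not called in any of the 15 comparisons. Srebf2 was at 55.3, 64.7 and 49.9 CPM with tCDCA and at 97, 77 and 117 CPM with KO CME(+), against 71.5, 55.2 and 79.7 CPM with DMSO. Srebf1 was at 23.4, 25.3 and 17 CPM with tCDCA and 22.5, 23.7 and 20 CPM with KO CME(+), against 6.72, 22 and 20.5 CPM with DMSO, where replicate 2 alone was low. Scap stayed between 16.4 and 27.4 CPM in these 9 second-run libraries. The activity of SREBPs is set by cleavage of the protein, which mRNA levels do not measure. Srebf1 and Rai1, Cyp51 and Akap9, Fdft1 and Ctsb, and Mvd and Gm20388 overlap at their 3' ends on opposite strands, and because the strand setting of the counting is not given, their reads cannot be told apart here. Tm7sf2 also overlaps Vps51, Fdps overlaps Gm43738 and Acaca overlaps Gm11437, and these members are uncertain too.

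Genes next to the module in the pathway were counted from lists chosen by function. Their called counts for tCDCA against DMSO stand beside the 5.68% of all genes called there, and a single call among 14 genes is near that share. Of 14 tested genes for SREBP processing and degradation, 1 was called with tCDCA against DMSO, Pgrmc1 (-0.79 ± 0.19), and of 15 other isoprenoid and sterol enzymes 2 fell, Cyb5r3 (-0.78 ± 0.18) and Cyb5a (-0.67 ± 0.19), the cytochrome b5 pair that passes electrons to desaturases and sterol oxidases. Of 11 LXR targets and sterol exporters 3 fell: the sterol exporter subunit Abcg5 (-0.88 ± 0.23), the phospholipid remodelling enzyme Lpcat3 (-0.74 ± 0.20) and Smpdl3a (-0.77 ± 0.24). Of 12 genes for sterol uptake and storage 2 fell, Npc1l1, the intestinal cholesterol uptake protein (-1.70 ± 0.25), and Lipa, the lysosomal acid lipase (-1.43 ± 0.38). These were edgeR calls with adjusted p between 4.02e-05 and 0.047, in libraries in which enterocyte markers fell too. The part of the enterocyte difference in these values was not tested.

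Of 18 other genes of fatty acid and triglyceride synthesis, 1 rose and 4 fell with tCDCA. Me1, the malic enzyme that supplies NADPH, rose (1.07 ± 0.29, edgeR adjusted p = 0.0183). The fallers were Dgat1 (-1.17 ± 0.18) and Dgat2 (-0.91 ± 0.18), which complete triglycerides, Mlxipl, the carbohydrate-sensing factor ChREBP (-0.98 ± 0.24), and Tkfc, an enzyme of fructose use (-1.45 ± 0.21). With KO CME(+), 2 of these 18 rose and 1 fell, where 2.31% of all genes were called. They are named here after their values were seen: Elovl5, an elongase of polyunsaturated fatty acids (1.17 ± 0.21, adjusted p = 0.000977), Me1 (1.05 ± 0.28, adjusted p = 0.0355) and Dgat1 (-1.02 ± 0.18, adjusted p = 0.00131). Of the other sterol lists with KO CME(+), Acat1, the mitochondrial thiolase and likewise named after its value was seen, rose (0.85 ± 0.18, adjusted p = 0.00387) and Npc1l1 fell (-1.11 ± 0.25, adjusted p = 0.014). With KO CME(-), where 0.952% of all genes were called, Elovl5 rose (1.04 ± 0.22, adjusted p = 0.0154) and Dgat1 fell (-1.16 ± 0.20, adjusted p = 0.00169). Dgat1 fell with WT CME(-) too (-0.86 ± 0.18, adjusted p = 0.0269) by edgeR, where 0.297% of all genes were called. With WT CME(+), edgeR called 0 genes of these 5 lists, and 9 of their genes had an unadjusted p under 0.05, beside 1317 of the 13125 genes tested. The comparisons with DMSO share its 3 libraries.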

How the data were processed

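Raw gene counts of 24 libraries, in whole numbers over 57126 identifiers, were deposited by the authors in a single table. The tools named per the submitters' processing notes are FastQC, cutadapt, Picard and HISAT2, with the GRCm39 build. How reads were counted, with which annotation and whether by strand, is not given in the sources used here. Symbols came from GENCODE M21 (GRCm38), which named 51884 identifiers, and upstream sequences from RefSeq on GRCm38.p6. No coordinate was converted between builds.

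Used libraries held 2.76 to 5.6 M counts, of which the 31 members took 0.124 to 0.266%. Low counts were filtered with filterByExpr, TMM set the library scaling, and edgeR 4.0.16 (R 4.3.3, limma 3.58.1) fitted a single quasi-likelihood model, in its robust form, to 21 libraries with group and run as terms. The 15 comparisons were contrasts of it, with Benjamini-Hochberg adjustment over 13125 genes, a threshold of 0.05 and two-sided tests. Since no used DMSO library is of the first run, the run term rests on the treated groups. The script was tested on simulated data. DESeq2 1.42.0 and other settings served as alternatives.

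Members were fixed by symbol, and the members and lists were chosen with earlier results of these data known. The rule for named genes allowed all 31 members, the listed pathway genes called for tCDCA against DMSO (at most 6 a list, by smallest p), Fgf15 as the exposure check, and cell type markers that were called. Acat1 and Elovl5 fall outside it.

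Replicates 2 to 4 of CME(-) and CME(+) share donor animals per the labels, so the donor block was fitted. The deviations of same-donor pairs correlated at -0.014 to 0.06 (4 pairs), and those of tCDCA and DMSO libraries with the same number at -0.094 to 0.077 (3 pairs). Every pair of replicates differed by more than sampling noise, with a chi-square of at least 5.13 per degree of freedom.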

Additional observations from a re-analysis of the deposited data

Results flagged for a closer look

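Of 93 sets of 4 libraries, each a member in a group, 6 had a library far from the other 3 by Dixon's criterion. For 4 libraries of 1 kind, chance would flag about 1 in 20 groups, or 4.7 of 93. Each set here mixed 1 first-run library with second-run libraries, so that number does not apply as it stands. Hmgcs1 was at 114 CPM in tCDCA replicate 3, where the other tCDCA libraries had 240 to 260 CPM. Fdps was at 31.2 CPM in WT CME(-) replicate 4, below the 39.2 to 40.4 CPM of the rest.

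The other 4 were libraries of the first run. In KO CME(+) replicate 1, Scd2 was at 78.8 CPM where the second-run libraries had 374 to 490 CPM, Dhcr7 at 11.6 CPM where they had 40.9 to 49.9 CPM, and Pmvk at 16.8 CPM where they had 22.9 to 24.1 CPM. Srebf2 was at 23.4 CPM in WT CME(-) replicate 1, where the others had 76.6 to 93.6 CPM. Scd2, Dhcr7 and Srebf2 are among the 4 members with the largest fitted difference between runs, although Srebf2 in WT CME(+) was at 63.8 CPM in the first run and 64.7 CPM on average in the second.

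The removed KO CME(-) replicate 3 had Scd2 at 261 CPM, above the 107 to 184 CPM of the used DMSO libraries. It was in no test.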

How the results depend on the processing

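For tCDCA against DMSO the number of called members was 2, and it was 0 with no scaling factors, with no run term or with only the compared groups, 1 in the second run alone, 1 without tCDCA replicate 3 and DMSO replicate 3 (chosen after seeing the data), and 0 to 3 when 1 library was left out. For WT CME(-) it was 0, and 1 (Scd2) with DESeq2 or no count filter, with 0 to 1 when 1 library was left out. For WT CME(+) it was 1, and 2 with DESeq2, 0 with no run term, with all 24 libraries or without tCDCA replicate 3 and DMSO replicate 3, with 0 to 1 leaving out 1 library. For KO CME(-) it was 1, and 0 with no scaling factors, no run term, the second run alone, all 24 libraries, DMSO replicate 1 added, the compared groups alone, the replicate block, or without tCDCA replicate 3 and DMSO replicate 3, with 0 to 1 leaving out 1 library. For KO CME(+) it was 4, and 0 with no run term, 1 with all 24 libraries, 2 with DMSO replicate 1 added, 2 with the replicate block and 1 without tCDCA replicate 3 and DMSO replicate 3, with 1 to 4 leaving out 1 library. It was 5 with no scaling factors, the second run alone or the compared groups alone, and 6 with DESeq2 or no count filter, where Mvd and Fads2 were added. For tCDCA against KO CME(+) it was 2, with 0 to 4 over the alternatives and 1 to 6 leaving out 1 library. For tCDCA against WT CME(+) it was 2, with 0 to 4 in both, and 0 with no scaling factors, no run term or only the compared groups. The cause was not tested.

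Under the replicate block, Dhcr7 (adjusted p = 0.0525) and Fasn (0.0573) lost their calls for KO CME(+) by edgeR, and Scd2 (0.0738) lost it for KO CME(-). That block changed no other call of a member. The donor block gave 0 members for CME(-) against CME(+) of each donor, and 1, Scd2, for their mean. Without DMSO replicate 4, Pmvk (1.21, adjusted p = 0.0131) and Fads2 (1.23, adjusted p = 0.0413) were called for tCDCA, and Fads2 (1.46, adjusted p = 0.0289) for KO CME(+). No direction of a called member reversed under any alternative run.

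With no scaling factors the median of all genes lay at 0.22 for KO CME(+) against DMSO and 0.13 for tCDCA against DMSO. The calls over all genes for KO CME(+) were then 269 higher and 18 lower, against 182 higher and 121 lower with TMM, and for tCDCA 427 genes were called, against 746. Over the alternatives the sterol median ranged from 0.21 to 0.53 for KO CME(+) against DMSO, from -0.16 to 0.15 for tCDCA against DMSO and from -0.54 to -0.30 for tCDCA against KO CME(+). Depth limits the low members, since 4 of 31 had a library under 20 counts, and the lowest count was 5, for Idi1.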
